A study of Homo sapiens with 3 samples.

Results

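The loci of NRG1, NRG3, REPS2 and MAP2K3 are 4 of the 82 genes that the authors' list of specific DKK-1 binding sites names. They were taken from the gene column of that list, which holds 200 sites in all and a gene for 83 of them. For each gene, its specific site and every peak in a window of the RefSeq transcript plus 100 kb on each side were collected from the authors' 2 full peak lists. This gave 13 of the 8723 distinct peaks in those lists. The genes were thus chosen from the measured peaks themselves, because a site had been placed in each. The tags, width, score and fold enrichment of the 4 sites are therefore a description of how they came to be on the list, and no test was made on them.

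The experiment was a chromatin immunoprecipitation followed by sequencing (ChIP-seq) with 3 libraries, all from DLD-1, an established human colorectal adenocarcinoma cell line. The DLD-1/DKK-1 library came from cells transduced with a lentivirus that carries V5-tagged human DKK-1 under doxycyclin control. The DLD-1/Mock library came from cells given the lentivirus without DKK-1, and the third library was a pool of input DNA without antibody. All cells were grown in Dulbecco's modified Eagle's medium with fetal bovine serum and glutamine, and the sources used here give no time of doxycyclin treatment before the immunoprecipitation. The study describes DLD-1 cells as without DKK-1 expression of their own. The records of both immunoprecipitates name an antibody against V5, whereas the methods name one against DKK-1. Each condition had 1 library. No difference between conditions could therefore be set against a spread between replicates, and the Poisson intervals of tags given here cover counting error only. After removal of duplicates 21312041 tags of the DLD-1/DKK-1 immunoprecipitate were left, with 24151009 of DLD-1/Mock and 27723787 of the input.

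DKK-1 is best known as a secreted inhibitor of Wnt signaling, and the comparison asked where the protein found inside the nucleus meets chromatin. The genes at these loci take part in growth-factor or MAP kinase signaling, and the lists give no link among them. Neuregulins are ligands with an EGF-like domain. NRG1 binds the receptors ERBB3 and ERBB4, NRG3 binds ERBB4, and the receptors then pass the signal to the Ras, PI3K and MAP kinase pathways. REPS2 is an EH-domain protein that takes part in the endocytosis of growth-factor receptors. MAP2K3, or MKK3, is a dual-specificity kinase that phosphorylates and activates p38 MAP kinases. The lists record peaks called in the DLD-1/DKK-1 immunoprecipitate over each control and hold no measure of the expression of these genes.

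Peaks are given in hg18, counted from 1, and are numbered along each locus. Tags are the reads of the DLD-1/DKK-1 library in a peak. The score is 10 times the negative log10 of the Poisson P value given by the peak caller MACS, so that the cut-off of 1e-05 is a score of 50. Fold enrichment is the height at the summit over the number of tags expected from the genome-wide background or the local control. The genome-wide background was 1.18 tags per 150 bp fragment. The FDR is the caller's own estimate from exchanging ChIP and control. DNA sequence of the sites is not shown, since no hg18 genome was used here.

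The neuregulin loci carried 11 of the 13 peaks, and REPS2 and MAP2K3 carried 1 each, which was the specific site itself. Against DLD-1/Mock there were 9 peaks, 3 at NRG1, 4 at NRG3 and 1 each at REPS2 and MAP2K3. Against input there were 11, with 4 at NRG1, 5 at NRG3 and again 1 each at REPS2 and MAP2K3. Both lists had 7 peaks in common, with identical coordinates, 2 were called against DLD-1/Mock only and 4 against input only. None of the 13 peaks touched an exon. Introns held 11, and 2 lay upstream of the transcript start, 1 at NRG1 and 1 at NRG3. No peak fell in the 100 kb downstream of any of the 4 genes. Exons made up only 0.180% of the NRG1 transcript, 0.301% of NRG3, 3.84% of REPS2 and 7.53% of MAP2K3.

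**Figure D1:**
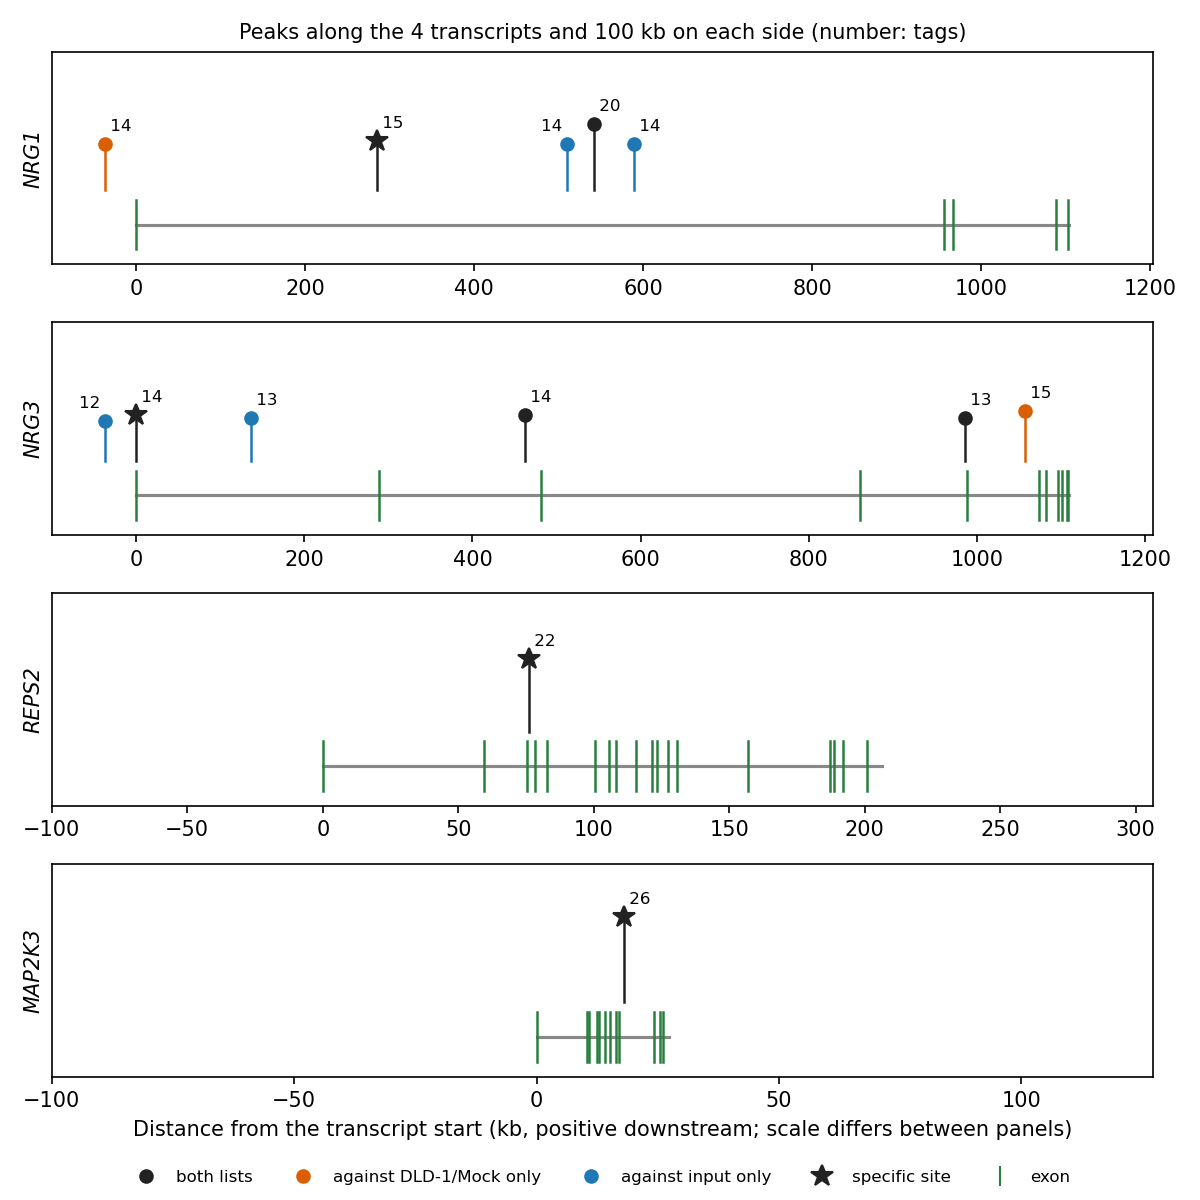
Peaks along the transcripts of NRG1, NRG3, REPS2 and MAP2K3 by distance from the transcript start (kb), with a stem for each peak whose height and number give its DLD-1/DKK-1 tags, stars for specific sites and green ticks for exons. NRG1 and NRG3 hold 5 and 6 peaks over more than 1 Mb, whereas REPS2 and MAP2K3 hold only their specific site.

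NRG1 was represented in the authors' list by the transcript NM_013962, which runs on the plus strand of chromosome 8 from 31616810 to 32720311 and has 5 exons. Its first intron is 955.1 kb long and makes up 86.6% of the transcript, and all 4 intronic peaks of the locus were in it. The specific site, peak 2, lay at 31901352 to 31901759 and was 408 bp wide. It held 15 tags (95% Poisson interval 8.40 to 24.7), with a fold enrichment of 10.91 against DLD-1/Mock and 10.98 against input and scores of 64.68 and 65.03. Its centre lay 284745 bp into the transcript, at 25.8% of its length, and 283566 bp from the nearest exon. None of the 79 other sites with a gene was farther from an exon of its transcript.

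The remaining NRG1 peaks differed in which control they were called against. Peak 1, at 31579272 to 31579744, lay 37302 bp upstream of the start, held 14 tags and was called against DLD-1/Mock only, with a score of 50.43, just above the cut-off. Peaks 3, 4 and 5 lay within 79.5 kb of each other near the middle of the first intron, between 46.2% and 53.4% of the transcript. Peak 4, at 32157713 to 32158192, was the only one of the 3 in both lists. It had the most tags of the NRG1 locus, 20 (12.2 to 30.9), and the most per length among all 13 peaks, 4.17 per 100 bp. Its neighbors, peak 3 at 32126615 to 32127022 and peak 5 at 32205765 to 32206152, held 14 tags each and were called against input only.

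Peak 4 of NRG1 exceeded the specific site of the locus in tags and in score against both controls, but it was not among the specific sites. Its score against DLD-1/Mock was 66.89, and that against input was 86.07, where 94.0% of the peaks of that list scored lower. Its fold enrichment was 10.25 against input and 7.86 against DLD-1/Mock, a factor of 1.30 between the controls for the same DLD-1/DKK-1 tags. In each of the 200 specific sites the fold enrichment reached 10 in both lists, so the value against DLD-1/Mock placed this peak outside. The counting intervals of peaks 2 and 4 overlapped, and their tags do not rank them.

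NRG3 was represented by NM_001165973, on the plus strand of chromosome 10 from 83627423 to 84736914, with 11 exons. The transcript, 1109492 bp long, is close in length to that of NRG1 (1103502 bp), but its peaks were spread over several introns. The specific site, peak 2, lay at 83627843 to 83628190 in the first intron. It was 348 bp wide and began 88 bp beyond the first exon. With its centre 593 bp into the transcript, it was 1 of 5 sites in the whole list within 1000 bp of the start of their transcript. It held 14 tags (7.65 to 23.5), with a fold enrichment of 10.14 and a score of 66.46 against both controls.

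Of the NRG3 peaks besides the specific site, those shared by both lists lay deep in the gene. Peak 4, at 84090259 to 84090675 in intron 2, held 14 tags with a fold enrichment of 9.29 against each control. Peak 5, at 84612269 to 84612606 in intron 4, was 2541 bp from the nearest exon and held 13 tags, with a fold enrichment of 8.45 against DLD-1/Mock and 7.33 against input. Peak 6, at 84683983 to 84684414 in intron 5, held 15 tags and was called against DLD-1/Mock only. Peak 1, at 83590997 to 83591318, lay 36265 bp upstream of the start and, with 12 tags, was the smallest of the 13 peaks. Peak 3, at 83764547 to 83764904 in intron 1, held 13 tags, and both peak 1 and peak 3 were called against input only. The specific site was therefore flanked on both sides by peaks that were seen against input alone.

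REPS2 was represented by NM_001080975, a plus-strand transcript of 18 exons at 16874735 to 17081323 of chromosome X. Its specific site, at 16950585 to 16951183, was 599 bp wide and lay in intron 3, a short intron of 2791 bp that makes up 1.35% of the transcript. It began 271 bp from exon 3, and its centre was at 36.9% of the transcript. The site held 22 tags (13.8 to 33.3). Its score of 88.54 against both controls was the highest of the 13 peaks, although its fold enrichment of 10.14, which is 12 tags divided by the genome-wide background, was the same as that of NRG3. The FDR of the site was 33.17% in the DLD-1/Mock list and 100% in the input list. The next peak in either list was 302036 bp away, outside the window.

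MAP2K3 was represented by NM_002756, on the plus strand of chromosome 17 from 21131941 to 21159143, with 12 exons in 27203 bp. Its specific site, at 21149554 to 21150265, lay in intron 9, which at 7014 bp makes up 25.8% of the transcript. The site was 712 bp wide and began 522 bp beyond exon 9. It held 26 tags (17.0 to 38.1), the most of the 13 peaks. Its scores were 76.34 against DLD-1/Mock and 75.36 against input. Its fold enrichment was 10.24 and 10.13, of which the latter was the lowest of the 4 sites. The nearest other peak was 678185 bp away.

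**Figure D2:**
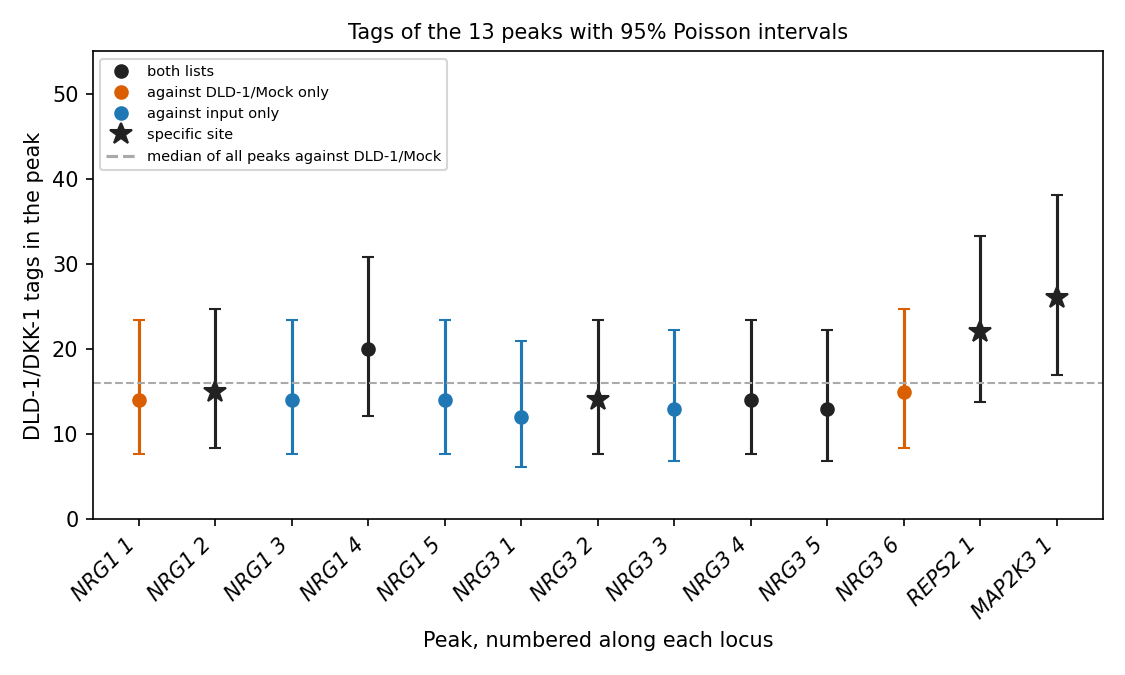
DLD-1/DKK-1 tags in each of the 13 peaks (points, stars for specific sites) with exact 95% Poisson intervals, colored by the list in which the peak was called. The 11 neuregulin peaks lie between 12 and 20 tags, REPS2 at 22 and MAP2K3 at 26, and the dashed line is the median of 16 tags over all peaks against DLD-1/Mock.

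Among themselves, the 4 sites fell into a small pair and a large pair. NRG1 and NRG3 had 15 and 14 tags in 408 and 348 bp, and REPS2 and MAP2K3 had 22 and 26 tags in 599 and 712 bp. Per length they were alike, with 3.68 tags per 100 bp at NRG1, 4.02 at NRG3, 3.67 at REPS2 and 3.65 at MAP2K3. All 13 peaks were between 2.96 and 4.17, and the other specific sites were not measured in this way. The likeness is therefore not shown to be particular to these 4. The Poisson intervals of all 4 tag counts overlapped, so the tags do not separate the pairs. Among the 200 sites, 14 had more tags than MAP2K3, 27 more than REPS2, 128 more than NRG1 and 145 more than NRG3, and the median was 17. In width, 9 sites exceeded MAP2K3, 42 REPS2, 131 NRG1 and 162 NRG3. The order by fold enrichment was another one. Against DLD-1/Mock, 89 sites exceeded NRG1, 113 exceeded MAP2K3 and 116 exceeded NRG3 and REPS2. Against input, 53 sites exceeded NRG1, 109 exceeded NRG3 and REPS2, and 189 exceeded MAP2K3, whose 10.13 was just under the 10.14 that 80 sites shared.

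The 9 peaks of the neuregulin loci that were not specific sites held 12 to 20 tags (median 14) and were 322 to 480 bp wide (median 408). The full lists had a median of 16 tags each and median widths of 477 bp against DLD-1/Mock and 473 bp against input. A fold enrichment of at least 10 was reached by 9.12% of all peaks against DLD-1/Mock, by 9.60% of those against input and, in both lists at once, by 6.27% of the shared peaks. Of these 9, peak 4 of NRG1 reached it, in 1 list. The lowest qualifying value in the weaker of both lists was 10.01 and the highest value left outside was 9.98. The weaker values at the sites were 10.91 for NRG1, 10.14 for NRG3 and REPS2 and 10.13 for MAP2K3, close above the threshold. Of the shared peaks left outside, the weaker value was 9.29 for peak 4 of NRG3, 7.86 for peak 4 of NRG1 and 7.33 for peak 5 of NRG3.

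**Figure D3:**
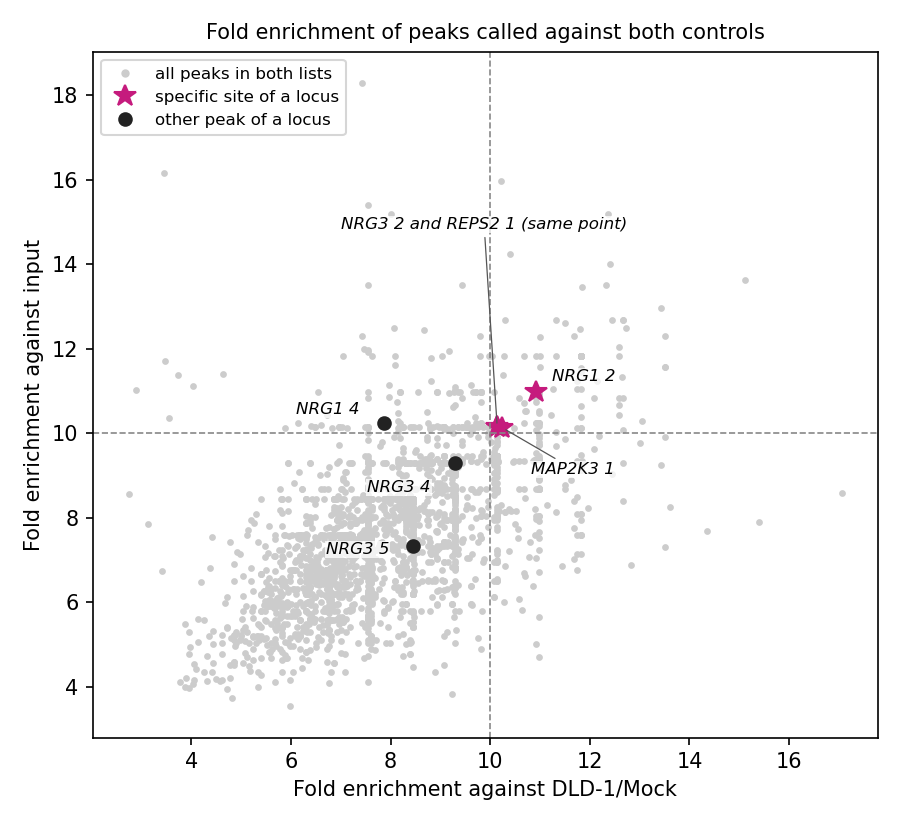
Fold enrichment against DLD-1/Mock (horizontal axis) and against input (vertical axis) for the 3189 peaks called against both controls (gray), with the specific sites of the 4 loci as stars, their other shared peaks as black points and dashed lines at 10. NRG3 and REPS2 fall on the same point at 10.14, and peak 4 of NRG1 lies above the line for input (10.25) but left of the line for DLD-1/Mock (7.86).

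Over all peaks, 48.1% of those against DLD-1/Mock were also called against input, and 60.4% of those against input were also called against DLD-1/Mock. At the 4 loci the corresponding shares were 7 of 9 (77.8%, exact 95% binomial interval 40.0% to 97.2%) and 7 of 11 (63.6%, 30.8% to 89.1%). The specific sites are in both lists by the way they were chosen, so these shares were in part fixed beforehand. Without them, the shared peaks were 3 of 5 in the DLD-1/Mock list (60.0%, 14.7% to 94.7%) and 3 of 7 in the input list (42.9%, 9.90% to 81.6%). With so few peaks these intervals are too wide to tell the loci from the full lists or to show them alike. They also treat peaks of a single library as independent, and peaks are not replicates. Fold enrichment was equal in both lists for 3 of the 7 shared peaks. Of the 20 fold enrichments at the 4 loci, 14 equaled to 2 decimals a whole number of tags, 8 to 13, over the genome-wide background. For these values the local control did not raise the number of tags expected above that background. Such values were not particular to these loci. The fold enrichment of the NRG3 site, 10.14 or 12 tags over that background, was common among the 200 specific sites. It was shared by 66 of them against DLD-1/Mock and by 80 against input. The shares of equal and of whole-number fold enrichments were not computed for the full lists, so neither count sets these loci apart. One and the same DLD-1/DKK-1 library stands behind both lists, so a peak in both is not a second observation.

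No peak at the 4 loci had an FDR below 33.17% against DLD-1/Mock or 69.47% against input. The highest values were 54.23% and 100%. High values were common to the full lists, where the FDR was at least 33.17% (median 47.07%) against DLD-1/Mock and at least 65.44% (median 74.0%) against input, and the value of REPS2 was the lowest of its list against DLD-1/Mock. All 4 sites had an FDR above 94% against input, with 94.68% for NRG1, 99.3% for NRG3 and 100% for REPS2 and MAP2K3. The share of the full list or of all specific sites with such values was not computed, so they do not set these 4 apart. The peaks called against input only had lower values, from 69.76% to 75.74%, although their scores were lower too. The shared peaks besides the sites went both ways. Peaks 5 and 4 of NRG3, with scores of 53.48 and 56.87 against input, had 69.47% and 73.98%. Peak 4 of NRG1, with a score of 86.07, had 100%.

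The number of peaks around each gene was set beside that around the other 78 genes of the list, with windows built in the same way. NRG1 and NRG3 are among the 6 genes of the list with a transcript over 1 Mb, the others being CNTNAP2, EYS, FAM190A and PRKG1. Per Mb of window, NRG1 had 3.84 distinct peaks and NRG3 had 4.58, and those 4 had 5.99, 3.20, 1.79 and 3.99. The median of the other 78 genes was 6.02 (range 0.920 to 77.2), and 23 of them were below NRG1 and 30 below NRG3. For the 67 of them that are not on chromosome 8 the median was 4.97. Every window holds at least its own site, which raises the density of short windows. REPS2 had 2.46 and MAP2K3 had 4.40 per Mb, values set by the length of a window with 1 peak. A window with no peak besides the site was found for 25.6% of the 82 genes, among them REPS2, MAP2K3 and 19 others, so isolated sites were frequent in the list. Of the 200 sites, 18 were farther from any other peak than MAP2K3 and 47 farther than REPS2. The sites of NRG3, REPS2 and MAP2K3 lay within 522 bp of an exon, as did 30 of the 79 other sites with a gene (those on an exon included).

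**Figure D4:**
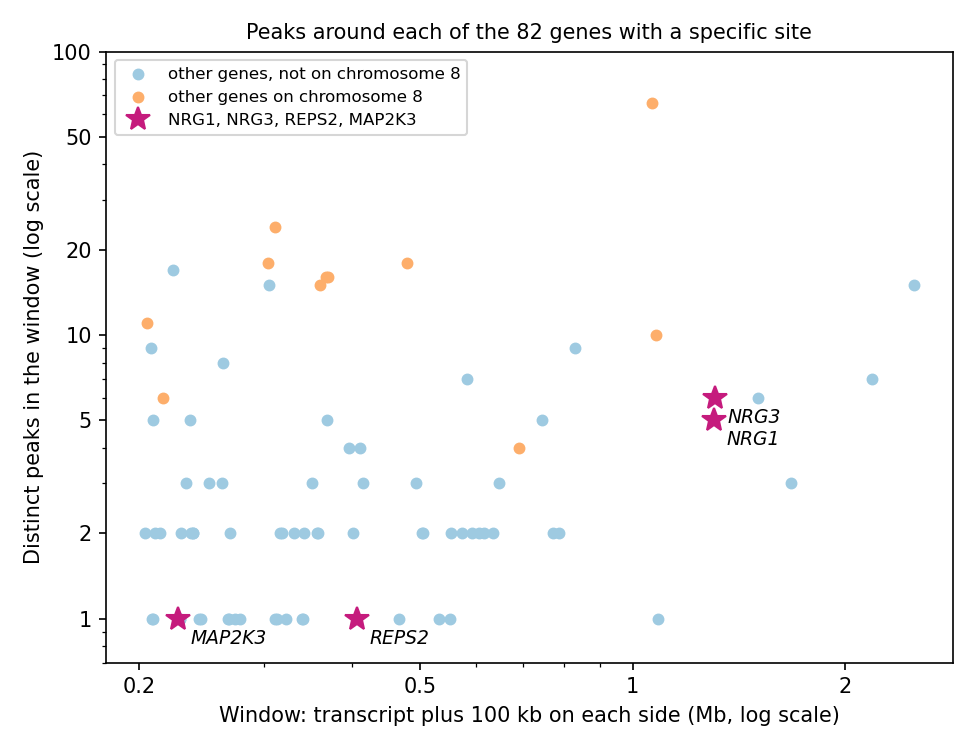
Number of distinct peaks (log scale) in the window of each of the 82 genes with a specific site against the length of the window in Mb (log scale), with stars for NRG1, NRG3, REPS2 and MAP2K3. NRG1 has 5 peaks in 1.30 Mb, and the 11 other genes on chromosome 8 (orange) have a median of 43.3 peaks per Mb.

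NRG1 was in the sparse part of chromosome 8. The whole chromosome, measured from its first peak to its last, had 17.6 distinct peaks per Mb. Up to 65 Mb it had 4.06 and beyond 65 Mb 28.2, a boundary taken from an earlier look at these data. A window as long as that of NRG1 would hold 23.0 peaks at the density of the whole chromosome, 5.29 at that of the first part and 36.8 at that of the second, where 5 were found. None of the 11 other genes on chromosome 8 had fewer peaks per Mb than NRG1, and their values were 5.80 to 77.2. These genes were not separated at 65 Mb. PXDNL, the lowest, has its site at 52493808, in the sparse part, and TCF24, with 27.8, at 68033730, beyond it. On chromosome 10 the density was 3.76 per Mb, which amounts to 4.93 peaks in the NRG3 window, where 6 were found. The counts for NRG1 and NRG3 include the site for which each window had been chosen. For REPS2 on chromosome X and MAP2K3 on chromosome 17 it amounts to 0.529 and 0.435, where 1 was found, again the site itself.

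A list of 86 genes of growth-factor signaling was written down for comparison, with the 4 genes described here among them. These 4 had a specific site by the way they were chosen, so their sites are no result of the comparison. None of the other 82 had one, among them 10 ErbB ligands, the 4 ErbB receptors, 14 Eps homology and Ral signaling genes and 14 genes of the p38 cascade. ERK and JNK cascades (15 genes) and receptor adaptors with Ras activation (25 genes) had none either. Over all protein-coding RefSeq genes the share with a specific site was 0.379%, so that 0 among 82 genes is no departure that could be seen. The full lists carry no gene names, and peaks below the threshold at these 82 genes were not analysed here. Related genes outside that list, noticed after the gene column had been read, were EPHA3, an Ephrin receptor tyrosine kinase, RPS6KA3, a kinase activated by ERK, and RIT2, a Ras-like GTPase. Their sites held 17, 14 and 17 tags. The count of 0 thus depends on how the list was drawn up.

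The sites most like each of the 4 were found by the sum of rank differences over 6 measures (tags, width, and score and fold enrichment against each control) among the 200 sites. The site of REPS2 was nearest to that of L3MBTL3, with 23 tags in 606 bp and a fold enrichment of 10.14 against both controls, followed by that of PXDNL with 25 tags. NRG3 was nearest to BCL2A1, an apoptosis regulator of the BCL2 family, whose site held 13 tags in 306 bp at the same fold enrichment, and next to ZNF90 with 16 tags. NRG1 was nearest to GRIA4, a glutamate receptor subunit, with 15 tags in 392 bp and fold enrichments of 10.91 and 10.98, which are those of NRG1, and next to GLDC with 16 tags. For MAP2K3 the nearest sites were farther off in rank. They were those of TCF24 and PLCL2 with 20 tags each, at rank distances of 165 and 169.5, where the nearest to REPS2 was at 21.5. Ties add to these distances, since TCF24 and PLCL2 have 10.14 in both lists. Against input, MAP2K3 with 10.13 ranks below all 80 sites at 10.14. Against DLD-1/Mock, its 10.24 ranks above all 66 at 10.14. All sites compared here were measured in the same library.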

How the data were processed

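ChIP-seq was performed on 3 libraries of DLD-1 cells, 1 per condition (DLD-1/DKK-1, DLD-1/Mock and pooled input), and groups were taken from the sample records. The authors aligned 40 bp reads to hg18 with ELANDv2 in CASAVA 1.7, kept unique alignments and called peaks on single libraries with MACS 1.4.0beta (P value 1e-05, model fold 10 to 30, fragment size and band width 150 bp, local backgrounds of 1000 and 10000 bp, at most 2 tags per position). Per the file headers, tags are a count without normalization that the authors deposited as MACS gave it. The score (10 times −log10 P), the fold enrichment (a ratio to the expected tags) and the FDR (a percent) are also the authors' deposited values.

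Peaks that overlapped a transcript of the specific list, extended by 100 kb, by at least 1 bp were collected, and peaks with 1 bp in common counted as shared. Transcript and exon coordinates came from the authors' list. The genes of the signaling list were matched by symbol and also through older symbols in RefSeq (GRCh38.p14). Exact Poisson and binomial (Clopper-Pearson) intervals are at 95%. Python 3.11.15, pandas 2.3.3, numpy 2.4.6, scipy 1.17.1 and matplotlib 3.10.9 were used, and the overlap functions were tested on simulated intervals. The genes described were the 4 members, genes of the signaling list with a site, any gene with a site in the windows (there was no other) and the 2 most alike sites for each. Members and lists were chosen with earlier results of these data known. Alternatives tried were other windows, stricter P values, a fold enrichment of 10 and stricter overlap.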

Additional observations from a re-analysis of the deposited data

How the results depend on the processing

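Of 116 values recomputed under an alternative, 92 stayed within 1.5 times the count, density or width reported, within the counting interval of a share or tag count, or within the site for a distance. Many of these could hardly move, so their number is no measure of robustness. Shared peaks had identical coordinates, which fixed the 6 values under a reciprocal overlap of 50%. A summit lies within its site, which fixed the 4 distances. The intervals of the shares were wide. Requiring a P value of 1e-10 left 0 peaks in either list, and so 0 shared ones, at NRG1, NRG3, REPS2 and MAP2K3. A P value of 1e-06 left 2 peaks at NRG1 and 1 at NRG3 against input, and 1 at NRG3 in both lists. A fold enrichment of at least 10 left 1 peak at NRG1 and 1 at NRG3 against DLD-1/Mock, 2 and 1 against input, and 1 and 1 in both lists. These falls follow from the filters themselves. With the transcript alone as window, peaks per Mb came to 4.84 at REPS2 and 36.8 at MAP2K3, and with 200 kb on each side to 2.34 at MAP2K3, since the single peak stayed and the length changed. The share of shared peaks without the 4 specific sites was chosen after seeing the data. Median tags and width without the specific site could not be computed for REPS2 and MAP2K3, which have no other peak. The depth limits any order among the peaks, which rest on 12 to 26 tags. No paired analysis was possible because there was a single library of each kind and nothing was tested.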
